A study of Mus musculus with 32 samples.

Results

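DNA transposon families were followed through 8 h of actinomycin D in mouse cells undergoing chemical reprogramming with or without CD3254. Members were the 197 repeat families that the deposited table classes as DNA, of 1146 repeat families in all. A further 21 rows carry the uncertain class DNA with a question mark and were not taken as members. The superfamily labels assign 73 members to hAT-Charlie, 44 to TcMar-Tigger, 31 to hAT-Tip100, 8 to hAT-Blackjack and 8 to TcMar-Tc2. The remainder fall under 8 smaller labels, among them TcMar-Mariner (3), PiggyBac (2) and 11 members whose superfamily is not named.

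All cells were OG2X129 mouse embryonic fibroblasts kept in a reprogramming medium for chemically induced pluripotent stem cells. That medium held bFGF, vitamin C, Parnate, Forskolin, VPA, AM580, EPZ004777, 616452 and CHIR99021, so both arms share these agents. One arm received CD3254 (CD in the labels), a synthetic agonist of retinoid X receptors, and the other received DMSO, its solvent control. Each arm was sampled after 0, 4 and 8 h of actinomycin D, an inhibitor of transcription, with 2 libraries per group and 12 libraries in 6 groups, of 32 libraries in 16 groups in the series. The day of reprogramming, the doses of CD3254 and actinomycin D and the age of the embryos are not stated in the labels. Nor do they say that the libraries of a group came from separate cultures, and the p-values then capture only the spread between these libraries, which may be technical.

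DNA transposons move by excision and reinsertion, catalysed by a transposase that recognises the element's inverted terminal repeats. The hAT and Tc1/mariner (TcMar) superfamilies supply most of those in mammalian genomes. Nearly all mouse copies are old, immobile fragments, and many families are non-autonomous, meaning that they carry the terminal repeats but encode no transposase. Copies often lie within introns and untranslated regions of genes, and a read from such a copy belongs to the RNA of the host gene. Each value here sums every copy of a family as CPM, its reads as a share of the library's reads, scaled to 1 total for all libraries. One highly transcribed copy and many weakly transcribed ones cannot be told apart, and CPM is not scaled to a family's length or copy number. A member's CPM is a share of the library, so a fall after actinomycin D is a loss relative to the other RNAs.

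Libraries held 15382821 to 24186485 reads, of which 5467 to 18793 fell in DNA families, and these made up 2.51 to 3.38% of the CPM of all repeat families. Of a list of 25 short-lived mRNAs, 24 fell at 4 h in DMSO and 25 in CD, which describes the action of actinomycin D in these libraries. The CD 0 h replicate 1 library had the highest summed level of those mRNAs, 7299 CPM against 2084 CPM in replicate 2. In DMSO at 0 h replicate 1 was also the higher, at 1828 CPM against 729.6 CPM in replicate 2. The total counts of called DNA families that rest on the 0 h libraries of CD are given below with and without CD 0 h replicate 1. Counts by superfamily and most calls of single families in CD are given only with it. All 14 fibroblast markers were detected, with summed levels of 4458 to 7908 CPM over the groups. The XEN-like endoderm and epithelial lists were also well above 0, at 3665 to 10690 CPM and 911.4 to 2016 CPM, while muscle markers summed to at most 13.97 CPM.

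DNA transposon RNA made up a smaller share of every library treated with actinomycin D than of the untreated libraries of the same arm. In DMSO the summed CPM of all 197 families was 573.1 and 565.4 at 0 h, 312.5 and 340.0 at 4 h, and 328.1 and 414.4 at 8 h. In CD it was 777.0 and 675.3 at 0 h, 391.1 and 356.3 at 4 h, and 477.8 and 469.7 at 8 h. The groups at 4 and 8 h did not overlap their 0 h group in either arm, and the lowest value of each arm was at 4 h in DMSO replicate 1 and CD replicate 2. Means relative to 0 h were 57.3% at 4 h and 65.2% at 8 h in DMSO, and 51.5% and 65.2% in CD. With libraries rescaled by the median ratio over genes, these became 71.1%, 87.05%, 68.0% and 84.4%. Rescaled to equal ERCC spike-ins (RNA standards present in each library), they were 56.8%, 54.0%, 44.5% and 50.0%, so the higher share at 8 h than at 4 h in DMSO was not seen on that scale.

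**Figure D1:**
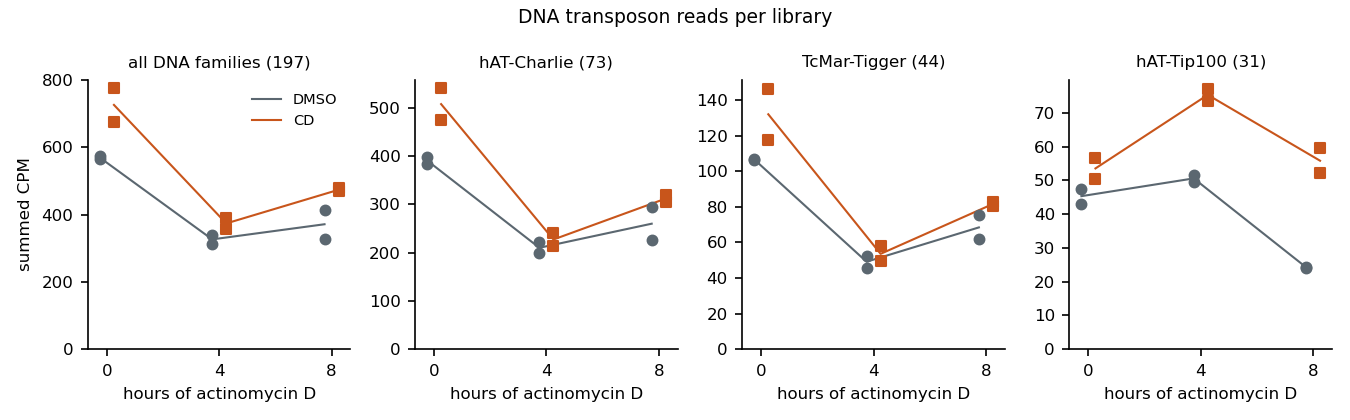
Summed CPM (vertical axes, each from 0) against hours of actinomycin D (horizontal axes) for all 197 DNA families and for the hAT-Charlie, TcMar-Tigger and hAT-Tip100 superfamilies. Points are single libraries, circles for DMSO and squares for CD, and lines join group means. The first 3 panels are lowest at 4 h, whereas hAT-Tip100 in CD lies at 56.6 and 50.5 CPM at 0 h and at 73.6 and 77.1 CPM at 4 h.

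Of the 3 largest superfamilies, hAT-Charlie and TcMar-Tigger had the same order of group means and hAT-Tip100 another. hAT-Charlie, the largest, summed to 397 and 384.2 CPM in DMSO at 0 h, 198.3 and 221.3 CPM at 4 h, and 226.1 and 293.3 CPM at 8 h. In CD it summed to 540.2 and 474.5 CPM, then 241.4 and 212.5 CPM, then 318.3 and 305.1 CPM. TcMar-Tigger, a branch related to the pogo transposon, held 106.7 and 106.6 CPM at 0 h in DMSO and 45.7 and 52.5 CPM at 4 h. Its CD libraries held 146.3 and 117.8 CPM at 0 h, 57.8 and 49.3 CPM at 4 h, and 82.5 and 80.7 CPM at 8 h. hAT-Tip100 instead was higher at 4 h than at 0 h in both arms, and at 8 h it was low in DMSO (24.1 and 24.4 CPM) and close to its starting level in CD (52.1 and 59.5 CPM). A single family, FordPrefect, carried this pattern. The other 30 hAT-Tip100 families together gave 26.4 and 20.4 CPM in CD at 0 h and 12.8 and 12.8 CPM at 4 h, and 17.8 and 18.6 CPM and then 9.43 and 11.2 CPM in DMSO.

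Reads were concentrated in few families. URR1A and URR1B, a pair of related hAT-Charlie elements of rodent genomes, held 21.9% of all DNA transposon reads over the 12 libraries, and the 10 most abundant families held 59.9%. The median family had 9 reads per library, and 9 families had no read in any library. A family entered the tests with at least 1 CPM in at least 2 of the 12 libraries, which 84 of the 197 members met: 38 hAT-Charlie, 20 TcMar-Tigger, 12 hAT-Tip100, 6 hAT-Blackjack and 8 others. Of these, 32 reached 1 CPM in all 12 libraries. Only 3 of the 84 reached it solely in 0 h libraries, so those 3 had to lie lower afterwards. Just inside the filter, 7 families reached 1 CPM in exactly 2 libraries, and just outside it 13 reached it in 1. The 113 untested families summed to means of 29.7, 16.3 and 20.0 CPM at 0, 4 and 8 h in DMSO, and 38.4, 18.1 and 25.7 CPM in CD.

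Before actinomycin D, DNA transposon RNA was a larger share of the CD libraries than of the DMSO libraries, with a summed mean of 726 ± 71.9 CPM (SD, n = 2) against 569 ± 5.46 CPM (SD, n = 2). Single families rarely passed the test. By limma with Benjamini-Hochberg adjustment over all 17720 genes and repeat families, 2 of 84 families were higher in CD and 0 were lower, where 7.99% of all features were called higher and 6.16% lower. At an unadjusted p under 0.05 there were 10 families in either direction (11.9%), 9 of them higher in CD, against 38.4% of all features. Groups did not overlap for 38 families higher in CD (45.2%), against 39.8% of all features, and for 8 families lower in CD (9.52%), against 19.6%. The median log2 difference was 0.23 over the 84 families and 0.19 over all features.

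URR1A was 1 of the 2 called families. It had 67.3 and 63.8 CPM in DMSO and 107.7 and 88.4 CPM in CD at 0 h, a log2 difference of 0.57 ± 0.15 (SE) with limma adjusted p = 0.0373. Both CD libraries lay above both DMSO libraries. Its partner URR1B (65.9 and 57.2 CPM against 91.0 and 79.1 CPM) did not overlap either, but its adjusted p by limma was 0.0678. The other called family was Arthur1B, an hAT-Tip100 element named after its values were seen, with 1.66 and 1.51 CPM in DMSO and 6.37 and 3.13 CPM in CD. Its log2 difference was 1.09 ± 0.27 (SE) with limma adjusted p = 0.0304. Abundance alone did not go with a difference: MER5B, a short hAT-Charlie element, had 39.5 and 35.2 CPM in DMSO and 35.3 and 38.0 CPM in CD.

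The call for URR1A at 0 h ended without CD 0 h replicate 1 (adjusted p by limma 0.219) and with median ratio scaling (0.0506), and no family was called with ERCC scaling. With median ratio scaling 1 family, Arthur1B, was higher and 0 lower, against 6.47% and 8.93% of all features. No family was called without that library, without DMSO 0 h replicate 2, or without any 1 of the CD 4 h, CD 8 h or DMSO 4 h libraries, while leaving out CD 0 h replicate 2 gave 4 calls. The summed levels of other lists also differed between the arms at 0 h: 9257 to 10690 CPM in CD against 6086 to 6175 CPM in DMSO for 10 XEN-like endoderm markers, 1937 to 1986 against 1258 to 1351 CPM for 8 epithelial markers, and 5569 to 5703 against 6633 to 7073 CPM for 14 fibroblast markers. Macrophage markers summed to 150.7 to 241.3 CPM in CD and 342.2 to 485.7 CPM in DMSO. Lyz2 held most of that sum, with 109.5 and 172.7 CPM in CD and 274.3 and 395.7 CPM in DMSO. Of the 8 macrophage markers tested, 7 lay below 0 on the log2 scale and 3 were called lower, against 6.16% of all features. In bulk RNA, fewer cells of a type and less RNA per cell cannot be told apart, and the part of these lists in the 0 h difference was not tested.

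In the first 4 h of actinomycin D many DNA transposon families fell as a share of the library. In DMSO, 30 of 84 families fell and 1 rose by limma, against 21.2% of all features called lower and 1.34% called higher. In CD, 47 fell and 1 rose, against 36.9% and 8.89% of all features. The family that rose was FordPrefect in both arms. Both 4 h libraries lay below both 0 h libraries for 69 families in DMSO (82.1%) and 67 in CD (79.8%), where all features gave 51.4% and 55.3%. The median log2 change was -0.51 in DMSO and -0.69 in CD over the 84 families, and -0.24 and -0.30 over all features. Relative to that general shift, with median ratio scaling, 19 families fell and 1 rose in DMSO, and 32 fell and 1 rose in CD, against 13.4% and 25.7% of all features called lower and 7.52% and 24.8% called higher. All 19 and all 32 were among those called lower on the deposited scale.

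By superfamily, 17 of 38 hAT-Charlie, 9 of 20 TcMar-Tigger, 2 of 12 hAT-Tip100 and 1 of 6 hAT-Blackjack families fell at 4 h in DMSO. In CD the numbers were 24, 13, 3 and 2. Of all features, 21.2% were called lower at 4 h in DMSO and 36.9% in CD. Of the families that fell, 25 were called in both arms, which is 83.3% of the DMSO calls and 53.2% of the CD calls. This overlap was counted with all libraries and was not counted over all features, so it is given as a description. Whether the arms differ was tested directly as the difference of the 4 h change, a comparison added after the values were seen. It called 0 of 84 families by limma, where 0% of all features were called in either direction, with 4 families at an unadjusted p under 0.05 (4.76%, against 4.57% of all features) and 0 calls by edgeR and by DESeq2. Median ratio scaling gave 0 families too, against 0.00564% of all features called higher and 0% lower.

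The abundant families show the size of the loss. URR1A went from 67.3 and 63.8 CPM to 33.4 and 34.6 CPM in DMSO, and from 107.7 and 88.4 CPM to 41.1 and 35.1 CPM in CD. Its log2 changes were -0.93 ± 0.15 (SE) and -1.34 ± 0.15 (SE), with limma adjusted p of 0.00636 and 0.000918. URR1B followed, at 28.6 and 31.3 CPM after 4 h in DMSO and 37.9 and 31.6 CPM in CD, and in neither pair of groups did the libraries overlap. MER2, a short non-autonomous TcMar-Tigger element, fell from 38.4 and 33.9 CPM to 13.96 and 16.28 CPM in DMSO. In CD it fell from 52.3 and 38.8 CPM to 17.9 and 16.6 CPM.

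MER20, an hAT-Charlie element of placental mammals, had among the steepest falls of the abundant families. It declined from 24.9 and 22.8 CPM to 8.77 and 9.65 CPM in DMSO, a log2 change of -1.29 ± 0.19 (SE) with limma adjusted p = 0.00581. In CD it declined from 32.7 and 33.1 CPM to 11.98 and 12.13 CPM, with a change of -1.38 ± 0.19 (SE) and limma adjusted p = 0.000937. Charlie1 and Charlie1a, which are named for the Charlie group of transposons, changed by -1.37 and -1.25 in DMSO on the log2 scale. In CD, Charlie1b (-1.54), MER58A (-1.48), Tigger7 (-1.46) and MER2B (-1.44) had the largest falls by the naming rule. Tigger7 went from 20.7 and 19.2 CPM to 7.76 and 5.61 CPM there, and MER58A from 20.8 and 15.6 CPM to 5.97 and 5.66 CPM.

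Some abundant members did not pass the test at 4 h. MER5B had 26.6 and 32.1 CPM at 4 h in DMSO and 28.8 and 27.5 CPM in CD, and was not called in any comparison. MER63C, the most abundant hAT-Blackjack family, was level with its 0 h libraries in DMSO (3.14 and 3.48 CPM at 4 h, 3.17 and 3.47 CPM at 0 h) and likewise was not called. In all, 31 of the 84 families were called in none of the 6 planned comparisons. The same count was not made over all features, so it cannot be said whether this share is particular to DNA families. The median SE of a family's log2 change was 0.24. A call needed a change several times its SE. Changes of about the median SE, and others well above it, could therefore be missed with 2 libraries per group.

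The 4 h counts depended on single libraries. In DMSO the 31 calls became 0 without DMSO 0 h replicate 1 or without DMSO 4 h replicate 1, 9 without DMSO 4 h replicate 2, 19 without DMSO 0 h replicate 2, and 0 with ERCC scaling. In CD the 48 calls became 23 without CD 0 h replicate 1 and 24 without CD 4 h replicate 2, with 1 family higher each time.

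**Figure D2:**
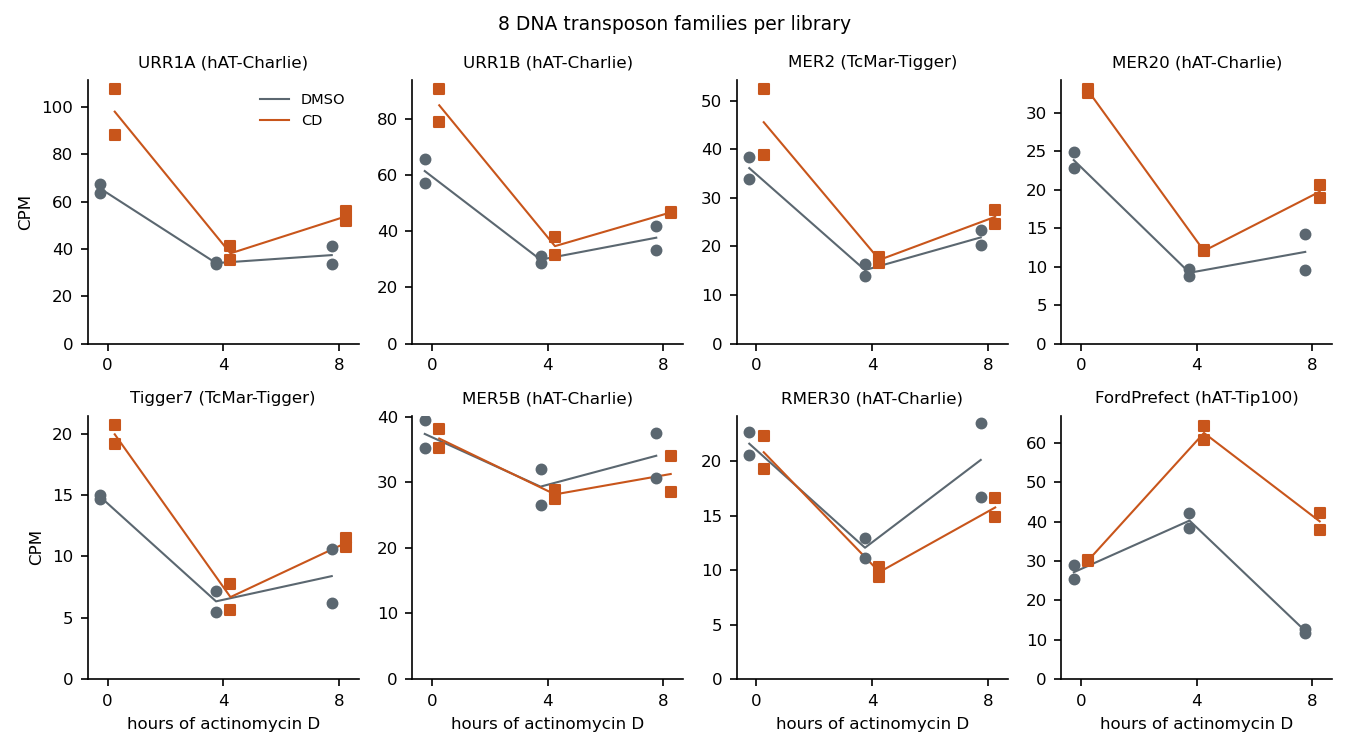
CPM (vertical axes, each from 0) against hours of actinomycin D for 8 families, with the superfamily in brackets. Points are single libraries, circles for DMSO and squares for CD, and lines join group means. URR1A, URR1B, MER2, MER20 and Tigger7 start higher in CD and are lower at 4 h, MER5B lies between 26.6 and 39.5 CPM in every library, RMER30 at 8 h in DMSO overlaps its 0 h libraries, and FordPrefect is highest at 4 h.

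At 8 h fewer families were called lower than at 4 h on the deposited scale. With ERCC scaling the DMSO count was instead higher at 8 h than at 4 h. In DMSO 16 of 84 families fell and 0 rose by limma, against 26.9% of all features called lower and 3.64% called higher. In CD 23 fell and 1 rose, against 40.8% and 12.7%. With median ratio scaling the counts were 5 lower and 0 higher in DMSO, and 6 lower and 2 higher in CD. The number of calls thus rests on the scaling, while more families were lower than higher on both scales. All features on that scale gave 12.9% lower and 16.3% higher in DMSO, and 28.6% lower and 24% higher in CD. The median log2 change was -0.41 in DMSO and -0.39 in CD over the 84 families, and -0.33 and -0.34 over all features. Groups did not overlap downward for 51 families in DMSO (60.7%) and 53 in CD (63.1%), where all features gave 51.1% and 56.4%.

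The families that fell at 8 h on both scalings were few. In DMSO they were URR1A, MER20, Arthur1B, Looper (a PiggyBac element) and FordPrefect. In CD they were URR1A, URR1B, MER2, MER58A, Charlie1b and Arthur1B. URR1A had 33.6 and 41.2 CPM at 8 h in DMSO and 55.9 and 51.7 CPM in CD, with log2 changes from 0 h of -0.80 ± 0.15 (SE) and -0.85 ± 0.15 (SE). MER58A in CD had 6.56 and 7.73 CPM, a log2 change of -1.23 ± 0.24 (SE) with limma adjusted p = 0.00312. MER20 had 9.54 and 14.3 CPM in DMSO and 20.6 and 19.0 CPM in CD, with changes of -0.97 and -0.71, and its CD change was not called with median ratio scaling (adjusted p by limma 0.0660).

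By superfamily, 9 of 38 hAT-Charlie, 3 of 20 TcMar-Tigger, 3 of 12 hAT-Tip100 and 0 of 6 hAT-Blackjack families fell at 8 h in DMSO, and 11, 6, 2 and 2 did so in CD. Of all features, 26.9% were called lower at 8 h in DMSO and 40.8% in CD. RMER30, an hAT-Charlie family that fell at 4 h in both arms, had 16.7 and 23.5 CPM at 8 h in DMSO, which overlaps its 0 h libraries (20.6 and 22.6 CPM). In CD it had 16.6 and 14.9 CPM at 8 h against 22.3 and 19.3 CPM at 0 h, with no call. The DMSO count of 16 became 1 without DMSO 0 h replicate 1 or DMSO 8 h replicate 1, and 10 without DMSO 0 h replicate 2. The CD count of 24 became 5 without CD 0 h replicate 1, 12 without CD 8 h replicate 1 and 10 without CD 8 h replicate 2, and edgeR and DESeq2 gave 7 each.

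The summed share of DNA families was higher at 8 h than at 4 h on the deposited scale, although the DMSO libraries overlapped (312.5 and 340.0 CPM at 4 h, 328.1 and 414.4 CPM at 8 h), replicate 2 at 8 h being the high one. Almost no single family passed the test. This comparison was added after the values were seen. The median log2 change from 4 to 8 h was 0.17 in DMSO and 0.34 in CD. Both 8 h libraries lay above both 4 h libraries for 28 of 84 families in DMSO (33.3%) and 49 in CD (58.3%), where all features gave 23.2% and 37.1%. By limma, 0 families rose and 1 fell in each arm, against 0.655% higher and 1.32% lower of all features in DMSO and 1.97% and 1.19% in CD. The 1 family was FordPrefect each time. With median ratio scaling 4 families rose in DMSO, RMER30 (log2 change 0.79) and MER2 (0.62) among them, and 2 rose in CD, which were MER20 (0.64) and Looper (0.76), while FordPrefect fell in each. On that scale 2.86% of all features were higher and 1.85% lower in DMSO, and 2.63% and 3.82% in CD.

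**Figure D3:**
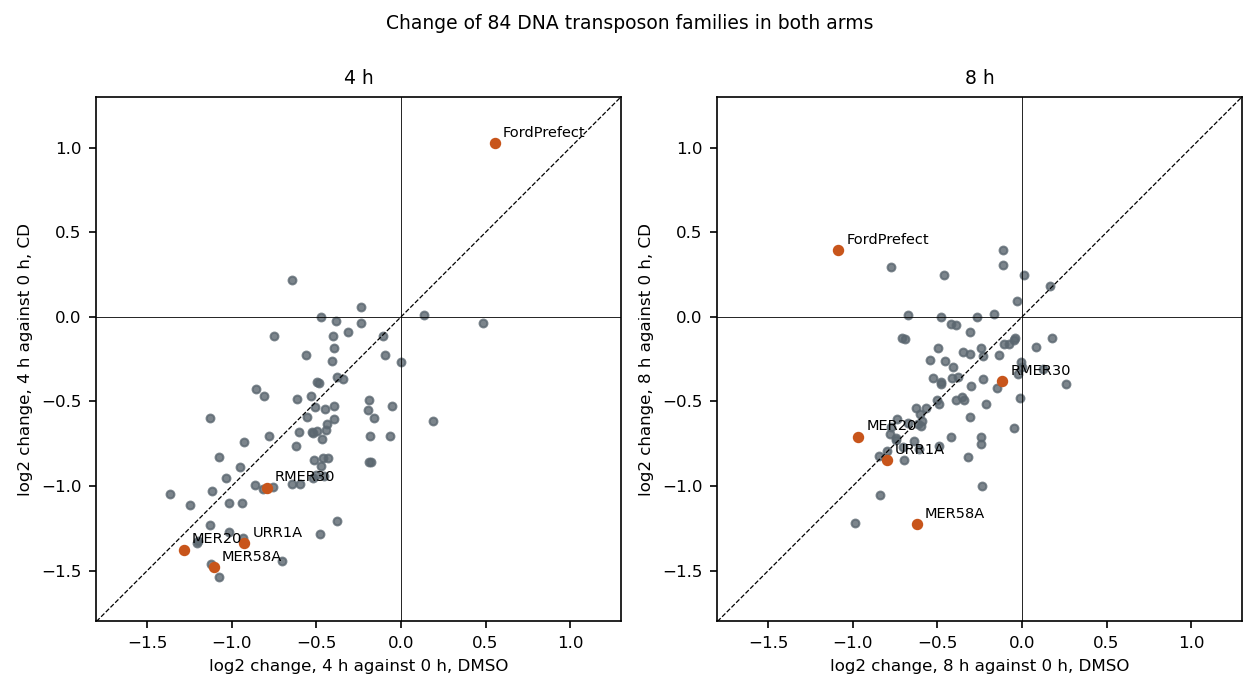
Log2 change of CPM + 1 against 0 h in DMSO (horizontal axes) and in CD (vertical axes) for the 84 tested families, at 4 h (left) and 8 h (right). Each point is 1 family, 5 families are named and drawn in orange, and the dashed line marks equal change. At 8 h FordPrefect lies apart from the other families, at -1.09 in DMSO and 0.40 in CD.

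FordPrefect, the third most abundant member, was the single family that rose at 4 h in either arm. The order of its groups was the same in both arms up to 4 h and differed at 8 h. In DMSO it had 25.3 and 29.0 CPM at 0 h, 42.2 and 38.4 CPM at 4 h, and 11.7 and 12.7 CPM at 8 h. In CD it had 30.2 and 30.1 CPM at 0 h, 60.8 and 64.3 CPM at 4 h, and 38.0 and 42.1 CPM at 8 h. The highest libraries were the CD libraries at 4 h and the lowest the DMSO libraries at 8 h, and only DMSO at 4 h and CD at 8 h overlapped. At 0 h the arms differed by 0.15 ± 0.14 (SE) on the log2 scale, with limma adjusted p = 0.443.

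Its rise at 4 h had a log2 size of 0.55 ± 0.14 (SE) in DMSO (limma adjusted p = 0.0197) and 1.03 ± 0.14 (SE) in CD (limma adjusted p = 0.000929). From 4 to 8 h it fell by 1.64 on the log2 scale in DMSO (limma adjusted p = 0.00135) and by 0.63 in CD (limma adjusted p = 0.0398). Against 0 h, the 8 h level was thus lower in DMSO, at -1.09 ± 0.14 (SE) with limma adjusted p = 0.00286. In CD it was higher, at 0.40 ± 0.14 (SE) with limma adjusted p = 0.0337. With ERCC scaling the 8 h change in CD was 0.07 (limma adjusted p = 0.810) and the 4 h rise in DMSO had a limma adjusted p of 0.142, whereas the 4 h rise in CD (0.86) and the 8 h fall in DMSO (-1.34) were called. The fall from 4 to 8 h in CD was not called with ERCC scaling (limma adjusted p = 0.156), with no filter (0.0551), with the replicate block (0.0680), or without any 1 of the CD 4 h, CD 8 h or DMSO 4 h libraries. The 8 h call in CD also ended without any 1 of the CD libraries or without either DMSO 4 h library, and the 4 h call in DMSO without DMSO 0 h replicate 1 or either DMSO 4 h library.

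Marker lists gave mixed values beside FordPrefect in DMSO. There, 8 epithelial markers summed to 1258 to 1351 CPM at 0 h, 1668 to 1722 CPM at 4 h and 911.4 to 916.2 CPM at 8 h, and 10 XEN-like endoderm markers to 6086 to 6175, 6165 to 6586 and 3665 to 4399 CPM. The XEN-like sum includes Col4a1, a basement membrane collagen that was not called at 4 h, with 2900 and 3168 CPM at 0 h and 4138 and 3776 CPM at 4 h. Of the 10 XEN-like genes, 9 lay below 0 on the log2 scale at 4 h in DMSO, and 5 were called lower and 0 higher. Of the 8 epithelial genes, 6 lay above 0 there, and 3 were called higher and 0 lower. All features gave 21.2% lower and 1.34% higher. At 8 h in DMSO 8 XEN-like and 5 epithelial genes were called lower and 0 higher. All features gave 26.9% lower and 3.64% higher there. In CD the epithelial list summed to 1937 to 1986, 2013 to 2016 and 1544 to 1557 CPM, and the XEN-like list to 9257 to 10690, 8531 to 9206 and 8128 to 8488 CPM. The part of these lists in the result was not tested. Because families are summed over copies, it cannot be told apart whether 1 copy or many gave these reads.

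The design asks whether CD3254 altered RNA loss, which the difference between the 8 h changes of the arms tests directly. FordPrefect was the only 1 of 84 families called, and 0 were called lower, where 0.0282% of all features were called higher and 0% lower. Its 8 h change was 1.48 ± 0.20 (SE) higher in CD than in DMSO on the log2 scale, with limma adjusted p = 0.0447. The size varied little, from 1.39 to 1.60 over the alternatives, but the call ended with median ratio scaling (limma adjusted p = 0.112), ERCC scaling (0.233), edgeR (0.106), the replicate block (0.1004) and with no filter (0.0937), and held with DESeq2 (3.7e-05). It also ended without any 1 of 11 of the libraries, CD 0 h replicate 2 being the exception. With median ratio scaling 0.0113% of all features were called higher. At 4 h its difference was 0.47 ± 0.20 (SE), with limma adjusted p = 0.830.

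For the other families no difference in loss between the arms was detectable at 8 h. The median difference over the 84 families was 0.00 on the log2 scale, with a median SE of 0.34, and 3 families had an unadjusted p under 0.05 (3.57%), against 11.3% of all features. At that SE only a very large difference could be called, since FordPrefect at 1.48 ± 0.20 (SE) had limma adjusted p = 0.0447. Equal loss in both arms is therefore not shown. URR1A differed by -0.05 ± 0.22 (SE), MER2 by -0.07 ± 0.25 (SE) and MER20 by 0.26 ± 0.27 (SE).

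By the median over tested families, DNA families lay between the other repeat classes in the size of their loss at 4 h. At 4 h the median log2 change in CD was -0.69 for DNA, -0.79 for 122 LINE families, -0.61 for 401 LTR families and -1.30 for 34 SINE families. The numbers called lower there were 47 of 84, 76 of 122, 199 of 401 and 32 of 34, against 36.9% of all features. In DMSO the medians were -0.51, -0.60, -0.47 and -1.05. On summed CPM the order of DNA and LINE was the reverse. At 4 h the means relative to 0 h in CD were 51.5% for DNA, 64.7% for LINE, 72.4% for LTR and 39.9% for SINE. In DMSO they were 57.3%, 69.8%, 85.2% and 49.2%. At 8 h they were 65.2%, 96.5%, 75.5% and 57.6% in CD, and 65.2%, 79.9%, 81.15% and 61.3% in DMSO. At 0 h, 12 of 34 SINE families were higher in CD and 0 lower, against 2 and 0 of 84 DNA families, 0 and 2 of 122 LINE families, and 3 and 6 of 401 LTR families. All features gave 7.99% higher and 6.16% lower. The SINE count was 4 with median ratio scaling, and 0 with ERCC scaling or without CD 0 h replicate 1. Without that library the numbers called lower at 4 h in CD were 22 of 81 DNA, 47 of 120 LINE, 104 of 390 LTR and 31 of 34 SINE families. No test of the difference between classes was made.

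**Figure D4:**
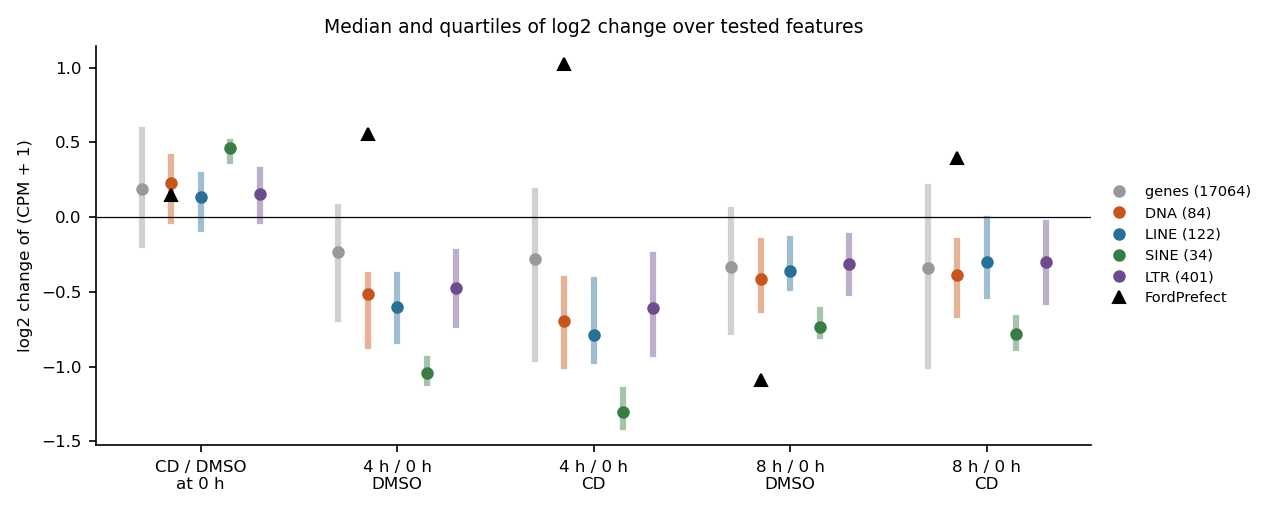
Median (dots) and quartiles (bars) of the log2 change of CPM + 1 (vertical axis) over the tested genes, DNA, LINE, SINE and LTR families in 5 comparisons (horizontal axis), with the number of tested features in brackets and FordPrefect as a triangle. The DNA medians, -0.51 and -0.69 at 4 h, lie below those of genes, and FordPrefect lies above the DNA quartiles at 4 h in both arms and below them at 8 h in DMSO.

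Mammalian genomes also hold genes that arose from DNA transposases and now serve the host. A list of 27 such genes was examined, of which 26 were in the table and 23 were tested. Rag2, a recombinase subunit of lymphocytes, was at 0 in all libraries. At 0 h 3 genes were higher in CD and 0 lower, against 7.99% and 6.16% of all features. They were Pogz, a chromatin protein with a pogo-derived domain (log2 difference 1.19), Harbi1, a relative of Harbinger transposases (0.95), and Thap11 (1.67). Thap11 is a regulator in embryonic stem cells with a DNA-binding domain like that of the P element transposase. Thap11 had 21.95 and 10.53 CPM in DMSO and 82.9 and 30.8 CPM in CD, and Pogz 24.3 and 14.1 CPM against 63.0 and 30.2 CPM, so CD replicate 1 was the highest library for both. Without that library none of the 3 genes was called, with log2 differences of 0.68 for Pogz, 0.75 for Harbi1 and 0.96 for Thap11 and limma adjusted p of 0.332, 0.214 and 0.319. All 3 calls also ended without DMSO 0 h replicate 2, without any 1 of the CD 4 h, CD 8 h or DMSO 4 h libraries, with ERCC scaling, with no filter and with a pseudocount of 0.25.

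After actinomycin D, 12 of the 23 genes fell at 4 h and 13 at 8 h in DMSO by limma, and 20 and 19 did so in CD. Of all features, 21.2% and 26.9% were called lower in DMSO, and 36.9% and 40.8% in CD. With median ratio scaling the numbers were 9, 6, 18 and 15, against 13.4%, 12.9%, 25.7% and 28.6% of all features. Without CD 0 h replicate 1 they were 12 at 4 h and 9 at 8 h in CD, of 22 genes tested. Their median log2 change at 4 h was -1.08 in DMSO and -1.42 in CD. It was -0.51 and -0.69 over the 84 DNA families, and -0.24 and -0.30 over all features. Pogz fell to 3.48 and 4.25 CPM at 4 h in DMSO and to 6.81 and 6.42 CPM in CD. Cenpb, a centromere protein related to pogo-like transposases, had 198.1 and 156.5 CPM at 0 h and 155.7 and 146.3 CPM at 4 h in DMSO, with no call. Thap12 was the 1 gene that rose on the deposited scale, at 8 h in CD, with a log2 change of 0.34. With median ratio scaling Thap12 also rose at 4 h in CD (limma adjusted p = 0.0464), and Cenpb and Thap12 rose at 8 h in DMSO (0.00666 and 0.0365). None of the 23 genes was called in the difference of the 8 h change by limma, 2 having an unadjusted p under 0.05.

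The features whose levels across the 12 libraries most resembled the summed DNA families were named by a fixed rule, as a description. Over 12 libraries, Pearson's r of log2 levels was 0.998 for Mga, a transcriptional repressor, 0.997 for each of the SINE families ID4, PB1D9 and B1_Mus1, and 0.996 for Pcf11, a factor of transcription termination. Mga had 55.5 and 49.0 CPM at 0 h in DMSO, 17.2 and 19.4 CPM at 4 h, and 18.8 and 28.6 CPM at 8 h. For FordPrefect, whose likeness was computed after its values were seen, the nearest were Hook1 (0.981), Plac8 (0.963), Crls1 (0.960), Ccdc34 (0.956) and Folr1 (0.951). Hook1, an adaptor for transport along microtubules, had 38.4 and 45.4 CPM at 0 h in DMSO, 47.3 and 50.2 CPM at 4 h, and 25.9 and 30.5 CPM at 8 h. In CD it had 41.2 and 44.8 CPM, then 63.2 and 60.5 CPM, then 47.5 and 49.2 CPM, and these libraries share the time course and the depth of their RNA.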

How the data were processed

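The table of the actinomycin D libraries holds a signal per gene and repeat family that the authors deposited; its header names no unit. The values were read as CPM (a gene's or family's reads scaled to 1 library total), since at least 99.998% of the deposited values became whole reads to within 0.001 reads, or to within 1e-06 of the value above 1000 reads, when divided by the worth of 1 read in that library. The submitters' processing notes name fastp 0.20.1, HISAT2 2.1.0, StringTie 2.0 and the build mm10; how reads of several repeat copies were assigned is not given in the sources used here. Each repeat family stands under 2 names with equal values and was used once, and ERCC rows were left out of the tests.

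Levels were compared with limma 3.58.1 (lmFit, contrasts.fit, eBayes with trend) in R 4.3.3 on log2(CPM + 1), in 1 fit over 12 libraries with 6 group means, 2-sided. Fold changes on that scale understate those of low families. Features with at least 1 CPM in at least 2 libraries were tested, 17720 in all, and p-values were adjusted over all of them by Benjamini-Hochberg, with 0.05 as the threshold. Gene symbols came from GENCODE vM21. Alternatives were another pseudocount, other filters, median ratio and ERCC scaling, adjustment over repeat families alone, edgeR 4.0.16 and DESeq2 1.42.0 on the recovered reads, a replicate block, and leaving out each library. The fits were tested on simulated data.

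Named families were the 10 with the highest mean CPM, the most abundant tested family of each larger superfamily, and in each comparison up to 4 per direction with the largest change among called families whose groups did not overlap and whose higher group averaged at least 5 CPM. The members, lists and rules were chosen with earlier results of these data known.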

Additional observations from a re-analysis of the deposited data

Results flagged for a closer look

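FordPrefect was the DNA transposon family whose 8 h change differed between the arms by the test of the difference itself: 1.48 on the log2 scale (CD minus DMSO), with limma adjusted p = 0.0447 over all features. The call was lost in 16 of 21 alternatives, median ratio and ERCC scaling, edgeR, no filter, the replicate block and 11 of 12 left-out libraries, with a size of 1.39 to 1.60 throughout. Both CD libraries at 8 h (38.0 and 42.1 CPM) lay above both CD libraries at 0 h (30.2 and 30.1 CPM), and both DMSO libraries at 8 h (11.7 and 12.7 CPM) lay below both at 0 h (25.3 and 29.0 CPM). With 2 libraries per group, single libraries could not be tested for standing apart within their group.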

How the results depend on the processing

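Counts of called DNA families are given here in the order 0 h, 4 h in DMSO, 4 h in CD, 8 h in DMSO, 8 h in CD and the difference of the 8 h change, where the reported counts were 2, 31, 48, 16, 24 and 1. Median ratio scaling gave 1, 20, 33, 5, 8 and 0, and ERCC scaling 0, 0, 44, 5, 35 and 0. A filter at 5 CPM gave 1, 20, 22, 10, 15 and 1, no filter gave 3, 24, 58, 8, 24 and 0, and a pseudocount of 0.25 gave 1, 31, 44, 16, 19 and 1. Adjustment over repeat families alone gave 0, 32, 49, 8, 13 and 1, edgeR 2, 19, 30, 5, 7 and 0, and DESeq2 2, 21, 27, 4, 7 and 1. Over all 17720 features the count test on recovered reads, edgeR, called 5006 higher and 4310 lower at 4 h in CD, and 2 higher and 0 lower in the difference of the 8 h change. Fewer families are tested with the filter at 5 CPM; for the other settings the cause was not tested. Leaving out 1 library at a time gave 0 to 4, 0 to 31, 23 to 48, 1 to 20, 5 to 26 and 0 to 1. Where an arm was left with 1 library, it is assumed to vary like the other groups.

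For 8 h against 4 h, with 1 call reported in each arm, DMSO gave 2 with a pseudocount of 0.25, 5 with median ratio scaling, 3 with edgeR and 4 with DESeq2, and CD gave 0 with no filter, 3 with median ratio scaling, 0 with ERCC scaling, 3 adjusted over repeat families alone, 2 with edgeR and 6 with DESeq2. Leaving out 1 library gave 1 to 2 in DMSO and 0 to 2 in CD. The difference of the 4 h change gave 0 throughout. Among 25 named changes under 21 alternatives each, 442 of 525 kept direction and call, 80 lost the call and 3 turned in direction. Those 3 were the 0 h difference of FordPrefect, which was not called: -0.0038 with median ratio scaling, -0.0489 with edgeR and -0.0177 with DESeq2.

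The labels do not say that replicate numbers pair these libraries. Over 15 pairs of groups the correlation of replicate differences ran from -0.686 to 0.537 and passed 0.1 in 4. The highest value was that of CD 0 h with DMSO 0 h, the groups compared at 0 h, and its cause was not tested. The replicate block gave 1, 26, 44, 11, 21 and 0 calls in the order above, and 1 in DMSO and 0 in CD for 8 h against 4 h. Depth limits the 113 untested families, most of which had few reads.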

Other observations

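Of the 5 features called in the difference of the 8 h change over 17720 tested, 2 were repeat families and 3 were genes. Beside FordPrefect, the LINE family L1MEg had 64.4 and 71.7 CPM at 0 h and 21.8 and 25.6 CPM at 8 h in DMSO, and 70.0 and 63.4 CPM at 0 h and 75.71 and 74.97 CPM at 8 h in CD. Its difference was 1.66 ± 0.19 (SE) on the log2 scale, with limma adjusted p = 0.0276. Peg10, an imprinted gene that arose from a retrotransposon, went from 835.6 and 985.7 CPM to 300.6 and 346.9 CPM in DMSO and from 1362 and 1303 CPM to 1251 and 1265 CPM in CD (difference 1.41, limma adjusted p = 0.0447). The remaining 2 were mt-Tl1, a mitochondrial leucine tRNA gene (2.93), and Gm3379 (2.48).

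Looper, the only PiggyBac family tested, is named here after its values were seen. It had 1.09 and 1.07 CPM at 0 h and 0.240 and 0.195 CPM at 8 h in DMSO, and 1.03 and 1.02 CPM at 0 h and 1.95 and 1.10 CPM at 8 h in CD. Its difference of the 8 h change was 1.07 ± 0.28 (SE), with an unadjusted p of 0.0030 and a limma adjusted p of 0.353, so it failed the correction.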
